A study of Mus musculus with 6 samples.

Results

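The 10 genes described here encode the NF-kappaB transcription factor subunits (Rela, Rel, Relb, Nfkb1 and Nfkb2), 4 IkappaB proteins that bind them (Nfkbia, Nfkbib, Nfkbie and Nfkbiz) and the ubiquitin-editing enzyme Tnfaip3, which shuts signalling to NF-kappaB down. They were taken by gene name from the 23398 genes of the deposited table, where each name occurred once. All libraries came from mouse bone marrow derived dendritic cells, antigen-presenting cells of the immune system, grown in DMEM with fetal bovine serum, penicillin and streptomycin. The vehicle group (3 libraries) received the carrier alone for 12 hours and the nanoparticle group (3 libraries) received Ca(OH)2 nanoparticles for 12 hours. Strain, age, genotype, particle dose, growth factors of the culture and whether the libraries of a group came from separate mice are not given in the sources used here, so p-values measure the spread between these libraries, which may be technical.

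NF-kappaB works as a dimer. In a resting cell IkappaB proteins hold most of it in the cytoplasm, and when a receptor for microbial products or cytokines is engaged, the IKK kinases mark these inhibitors for destruction and the dimer enters the nucleus. Several of its target genes encode its own subunits and inhibitors, so the pathway feeds back on itself. A second, noncanonical branch, run by the kinase encoded by Map3k14 (NIK), processes the Nfkb2 precursor and releases dimers with RelB. In dendritic cells NF-kappaB is known for driving maturation and cytokine genes.

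The promoters of the members are shown first because they hold the letters that NF-kappaB is known to bind. RefSeq promoter windows on build GRCm38.p6, from 250 bases before to 50 bases after a transcription start, were matched for 7 members in 10 windows. Nfkb1, Relb and Nfkbiz are named only. The kappaB consensus, a motif of 10 bases, was searched on both strands. It was found in windows of 5 of the 7 members (71.4%), namely Nfkb2, Nfkbia, Nfkbie, Rel and Tnfaip3. Of all 27025 genes with such windows 9.55% held it, and of the 7946 among them that were tested below 12.2% did. Neither set was matched to the members for base composition or for windows per gene. The windows of Nfkbib and Rela held no match, which says only that these letters are not in them. Stretches of 30 bases around the matches are given 5′ to 3′ on the strand of the gene, with the bases of the match, or of overlapping matches, in capitals.
Nfkb2, chr19:46304689-46304718, plus strand: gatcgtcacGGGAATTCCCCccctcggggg
Nfkb2, chr19:46304716-46304745, plus strand: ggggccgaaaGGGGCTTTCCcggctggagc
Nfkb2, chr19:46305449-46305478, plus strand: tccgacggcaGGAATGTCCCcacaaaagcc
Nfkb2, chr19:46305695-46305724, plus strand: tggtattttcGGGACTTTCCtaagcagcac
Rel, chr11:23771041-23771070, minus strand: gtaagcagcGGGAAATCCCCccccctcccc
Nfkbia, chr12:55492657-55492686, minus strand: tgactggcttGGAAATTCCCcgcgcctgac
Nfkbie, chr17:45555584-45555613, plus strand: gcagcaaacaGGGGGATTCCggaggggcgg
Tnfaip3, chr10:19015516-19015545, minus strand: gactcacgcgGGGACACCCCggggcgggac
Tnfaip3, chr10:19015403-19015432, minus strand: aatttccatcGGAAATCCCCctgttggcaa

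Counted from the transcription start, the matches began at position -29 in Nfkbia, -92 in Rel and -106 in Nfkbie, and at -125 and -12 in 1 of the Tnfaip3 windows. The other Tnfaip3 window held no match. Nfkb2, with 3 starts, had a match in each of its windows, and the copy that reads GGGACTTTCC falls in overlapping windows of 2 of them.  Base composition differed among the windows, from 47.0% G and C in the second Tnfaip3 window to 75.0% in Rel, against a median of 52.7% over all windows. A match is a description of the sequence and no evidence of binding in these cells.

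Expression was deposited per gene and library as FPKM (fragments per kilobase of transcript and per unit of library scale), a unit inferred from the values. Whole reads were recovered from these values, and the libraries held 17288041 to 21982642 reads. Counting therefore rested on at least 42 reads for every member in every library. The dendritic cell label was checked against markers. Itgax was at 442 to 456 FPKM in vehicle and 248 to 398 with nanoparticles, and the MHC class II invariant chain gene Cd74 at 3902 to 4264 and 2270 to 5273 FPKM, whereas Flt3 was at most 0.0793 FPKM in any library. Over all 10682 tested genes 17.0% were called higher and 16.2% lower by the test used below. Without nanoparticle library 1, 3660 were higher and 3263 lower. Of the 8 dendritic cell markers tested, 0 were higher and 4 lower with nanoparticles past the test used below, and 1 higher and 5 lower without nanoparticle library 1. The lower ones were the lectin genes Cd209a (means of 5.69 and 0.0254 FPKM) and Clec10a (6.92 and 0.786 FPKM), the MHC class II transactivator gene Ciita (15.8 and 6.09 FPKM) and the transcription factor gene Zbtb46 (3.97 and 2.30 FPKM), whose adjusted p by limma reached 0.0813 among the alternatives. All 8 macrophage markers were expressed too. They summed to 678 to 826 FPKM in vehicle and 402 to 508 FPKM with nanoparticles. Of them 2, Adgre1 and Fcgr1, were higher and 5 lower past the test used below. The adjusted p by limma of Adgre1 and Fcgr1 reached 0.0974 and 0.0784 among the alternatives. Neutrophil markers summed to 265 to 299 and 180 to 253 FPKM, nearly all of it Mmp8 and S100a8, with Ly6g at most 0.192 FPKM. Mmp8 was lower with nanoparticles (means of 245 and 130 FPKM) and S100a8 higher (34.9 and 83.1 FPKM). Mast cell and basophil markers summed to 3.93 to 6.16 and 10.3 to 26.1 FPKM. The higher sum came from Hdc (means of 0.338 and 12.5 FPKM). Gata2 was called lower (2.88 and 1.31 FPKM), and Kit (1.28 and 0.852 FPKM) was not called. The adjusted p by limma of S100a8 and Gata2 reached 0.0797 and 0.0793 among the alternatives. Markers of B cells, T and NK cells, erythroid cells and stroma summed, list by list, to at most 1.44 FPKM in any library. The part of other cells in the results below was not tested, and in bulk RNA fewer cells of a type and less RNA per cell cannot be told apart. Nanoparticle library 1 stood apart from the others of its group. Over 10682 genes (not independent replicates) it correlated at 0.942 and 0.928 with nanoparticle libraries 2 and 3, which correlated at 0.9895 with each other. Results are therefore also given without it.

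All 10 members were higher with nanoparticles, and in each of them the lowest nanoparticle library lay above the highest vehicle library. Levels were compared with limma on log2(FPKM + 1) over the 10682 genes that reached 1 FPKM in 3 or more libraries, with Benjamini-Hochberg adjustment over those genes and a threshold of 0.05. Of the 10 members, 10 were higher and 0 lower past that threshold. Over all tested genes 33.2% were called, 17.0% higher and 16.2% lower, and 25.9% had nanoparticle libraries that all lay above the vehicle libraries. The median log2 change of the members was 2.29, against 0.00 for all tested genes. Nfkbiz reached the filter through the nanoparticle libraries alone, so it had to differ, and the other 9 members exceeded it in every library. Without nanoparticle library 1 all 10 were again called higher, where 34.3% of all tested genes were, and their median log2 change was 2.23.

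**Figure D1:**
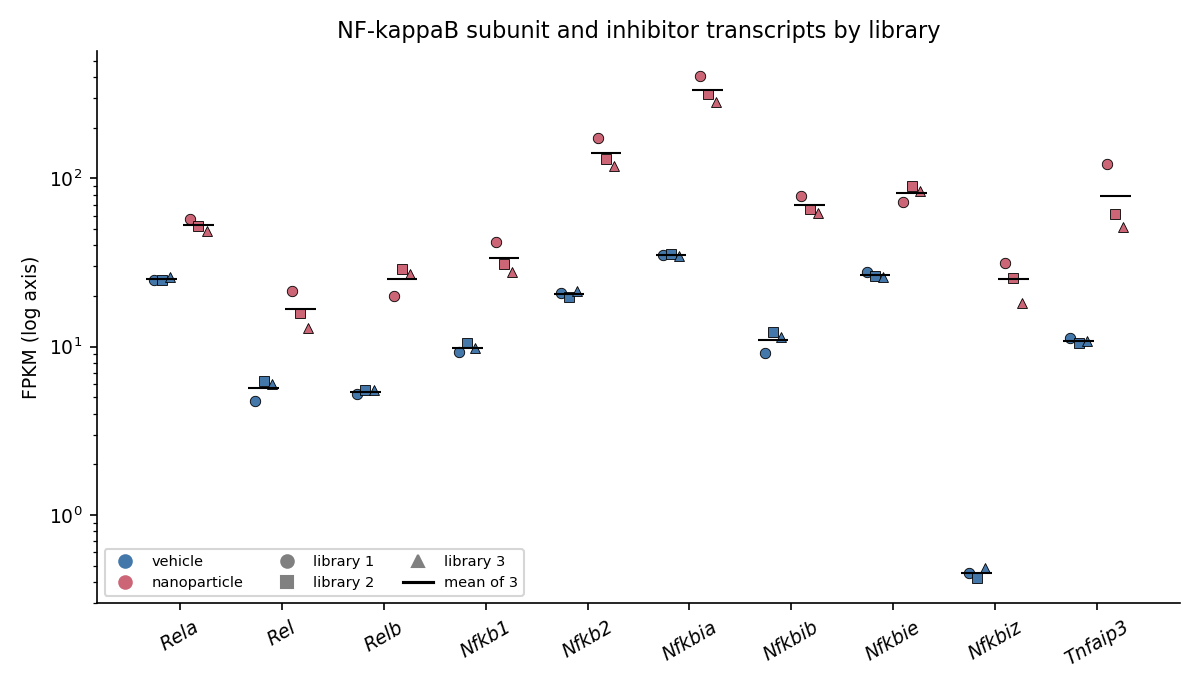
FPKM (log axis) of the 10 members in each of 3 vehicle and 3 nanoparticle libraries, with points shaped by library and a line at the group mean. Nanoparticle points lie above all vehicle points in each gene, from about 25 to 53 FPKM on average in Rela to 0.453 to 25.1 FPKM in Nfkbiz.

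Among the subunits, those with their own activation domain are Rela, Rel and Relb. Rela, which forms the classical dimer with the Nfkb1 product, was at 24.8, 24.9 and 26.1 FPKM in vehicle libraries 1 to 3 and at 57.4, 52.2 and 48.5 FPKM in nanoparticle libraries 1 to 3. It was the most abundant subunit transcript per length in vehicle cells, and it had the smallest change of the 10 members. Its means of 25.3 ± 0.692 and 52.7 ± 4.44 FPKM (SD, n = 3 each) differed 2.09-fold, with a log2 change of 1.03 (SE 0.105, adjusted p by limma = 8.4e-04).

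Rel encodes c-Rel, a subunit of lymphoid and myeloid cells that is known to act on Il12b. It was at 4.75, 6.24 and 5.99 FPKM in vehicle and at 21.4, 15.8 and 12.9 FPKM with nanoparticles. The vehicle libraries varied more for Rel (coefficient of variation 14.05%) than for most members, and the nanoparticle group was still wholly above them. The log2 change was 1.39 (SE 0.198, adjusted p by limma = 0.0029) and 1.21 without nanoparticle library 1.

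Relb encodes the subunit of the noncanonical branch, which is known for its part in dendritic cell development. It was at 5.21, 5.51 and 5.52 FPKM in vehicle and at 20.1, 28.8 and 27.2 FPKM with nanoparticles. Unlike Rela and Rel, its lowest nanoparticle value was that of library 1. Its mean rose 4.69-fold, a log2 change of 2.03 (SE 0.149, adjusted p by limma = 2.7e-04).

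Nfkb1 and Nfkb2 encode precursors that are cut to subunits without an activation domain, and whose uncut forms act as inhibitors. Nfkb1 was at 9.33, 10.5 and 9.82 FPKM in vehicle and at 41.9, 31.0 and 27.7 FPKM with nanoparticles, a log2 change of 1.65 (SE 0.165, adjusted p by limma = 8.0e-04). Nfkb2 was at 20.7, 19.8 and 21.3 FPKM in vehicle and at 173, 130.04 and 119 FPKM with nanoparticles. This was the largest change among the subunits, 6.83-fold between the means and 6.05-fold without nanoparticle library 1, with a log2 change of 2.70 (SE 0.159, adjusted p by limma = 1.4e-04). Exons of Nfkb2 overlap those of Psd and of a long noncoding RNA gene on the other strand. Whether the counting used strand is not given in the sources used here. Psd went from 0.819 to 1.12 FPKM in vehicle to 4.40 to 7.11 FPKM with nanoparticles. Psd held 565 to 887 recovered reads in the nanoparticle libraries, and Nfkb2 held 7078 to 9293.

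The makeup of the subunit transcripts was compared within each library. As a share of the FPKM summed over the 5 subunits, Nfkb2 made up 32.0%, 29.6% and 31.0% in vehicle and 55.1%, 50.4% and 50.6% with nanoparticles. Rela took 38.3%, 37.3% and 37.9% in vehicle and 18.3%, 20.2% and 20.6% with nanoparticles. By FPKM, Rela was thus the leading subunit transcript in every vehicle library and Nfkb2 in every nanoparticle library. This order depends on the lengths that divide the reads, 12061 bases for Nfkb1 and 2716 for Rela. By recovered reads Nfkb1 lay above Rela in every vehicle library (2243, 2503 and 2473 against 1342, 1343 and 1478). Nfkb2 held the most reads of the 5 subunits in every nanoparticle library. The shares of Nfkb1 (14.8% ± 0.748 and 12.4% ± 0.855, SD, n = 3 each) and Rel (8.46% ± 1.02 and 6.15% ± 0.682) were lower with nanoparticles, with no overlap between groups. The share of Relb was 8.03% to 8.22% in vehicle and overlapped it with nanoparticles, at 6.42% in library 1 and 11.2% and 11.6% in libraries 2 and 3. Exact permutation tests, two-sided, gave p = 0.1 for each of the 4 separated shares and 0.4 for Relb (Benjamini-Hochberg adjusted over the 5 shares, 0.125 and 0.4). With 3 libraries against 3 the smallest p is 0.1, so these tests could not pass 0.05.

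**Figure D2:**
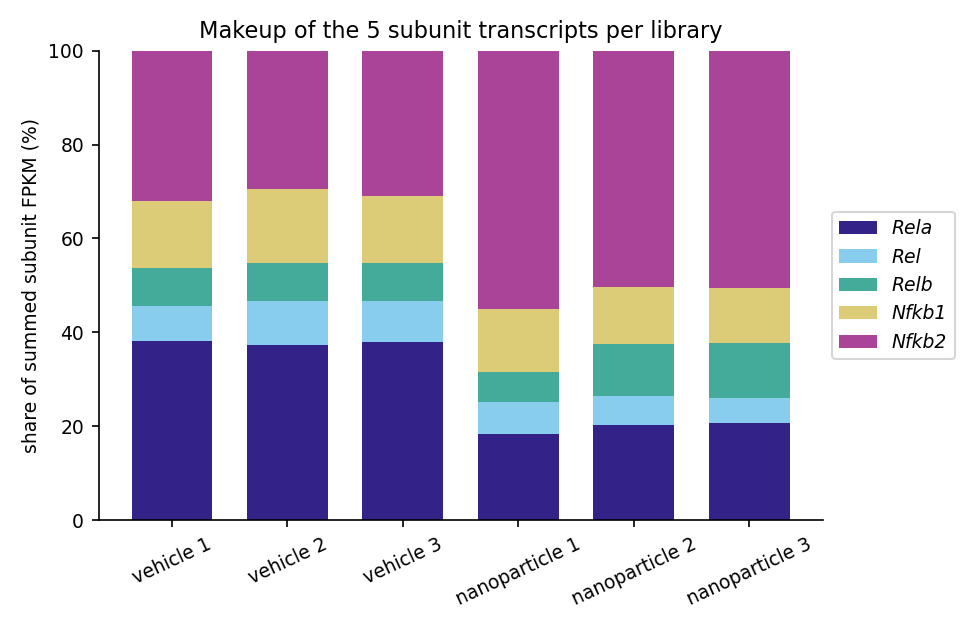
Stacked bars give the share (%) of each subunit transcript in the summed FPKM of the 5 subunits, 1 bar per library. Nfkb2 fills 29.6% to 32.0% of the vehicle bars and 50.4% to 55.1% of the nanoparticle bars, and Rela fills 37.3% to 38.3% of the vehicle bars and 18.3% to 20.6% of the nanoparticle bars.

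The classical IkappaB proteins, which keep dimers out of the nucleus, are encoded by Nfkbia, Nfkbib and Nfkbie. Nfkbia, the inhibitor that is resynthesised fastest after a stimulus, was at 35.0, 35.7 and 34.5 FPKM in vehicle and at 407, 317 and 284 FPKM with nanoparticles. By FPKM it was the most abundant member in every library. The coefficient of variation over the vehicle libraries was 1.69%, and the means differed 9.58-fold, with a log2 change of 3.21 (SE 0.157, adjusted p by limma = 8.4e-05). Among the tested genes Nfkbia ranked 1155 by mean level in vehicle and 168 with nanoparticles.

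Nfkbib, whose product also retains dimers in the cytoplasm and is resynthesised more slowly, was at 9.12, 12.2 and 11.4 FPKM in vehicle and at 79.2, 65.8 and 62.4 FPKM with nanoparticles. Its 6.33-fold difference between means was a log2 change of 2.56 (SE 0.151, adjusted p by limma = 1.3e-04). Its exons overlap those of Sirt2 (42 bases) and Ccer2 (314 bases) on the other strand. Ccer2 was not found by that name among the deposited genes, so its part could not be assessed. Sirt2 went from 15.8 to 16.7 FPKM to 19.99 to 25.9 FPKM. Nfkbie, the IkappaB known for acting on Rel and Rela dimers, was at 27.7, 26.2 and 25.8 FPKM in vehicle and at 72.2, 90.7 and 84.0 FPKM with nanoparticles. As for Relb, nanoparticle library 1 was the lowest of its group. The log2 change of Nfkbie was 1.59 (SE 0.120, adjusted p by limma = 3.0e-04).

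The summed level of the 3 classical inhibitors went from 72.6 ± 1.37 to 487 ± 65.3 FPKM, and that of the 5 subunits from 66.8 ± 1.95 to 269 ± 40.4 FPKM (SD, n = 3 each). The ratio of inhibitor to subunit FPKM was 1.11, 1.11 and 1.04 in vehicle and 1.78, 1.83 and 1.83 with nanoparticles. This ratio was chosen after its parts had been seen and was given no test.

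Nfkbiz encodes IkappaBzeta, a nuclear IkappaB that is nearly absent from resting cells and assists transcription of a second wave of target genes. It was the lowest member in vehicle, at 0.450, 0.422 and 0.487 FPKM (45, 42 and 51 recovered reads), and was at 31.5, 25.6 and 18.3 FPKM with nanoparticles (2579, 2123 and 1770 reads). The means differed 55.4-fold, and the lowest nanoparticle library was 37.6-fold above the highest vehicle library. On the log2(FPKM + 1) scale, which understates low genes, the log2 change was 4.14 (SE 0.193, adjusted p by limma = 7.1e-05). As Nfkbiz reached the filter through the nanoparticle libraries alone, it had to differ, and this p is no support for a difference. Nfkbiz ranked 60 of 10682 genes by this change, ahead of Nfkbia at 116. With a pseudocount of 4 the order turned, with log2 changes of 2.68 for Nfkbiz and 3.10 for Nfkbia.

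Tnfaip3, which removes activating ubiquitin chains upstream of the IKK kinases, was at 11.3, 10.5 and 10.8 FPKM in vehicle and at 122, 61.9 and 51.3 FPKM with nanoparticles. Nanoparticle library 1 held 2.15 times the mean of the other nanoparticle libraries, the largest such gap among the 10 members. Its log2 change was 2.64 (SE 0.311, adjusted p by limma = 0.0014) with all libraries. Without nanoparticle library 1 the means differed 5.21-fold in place of 7.22-fold, and the log2 change was 2.27.

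**Figure D3:**
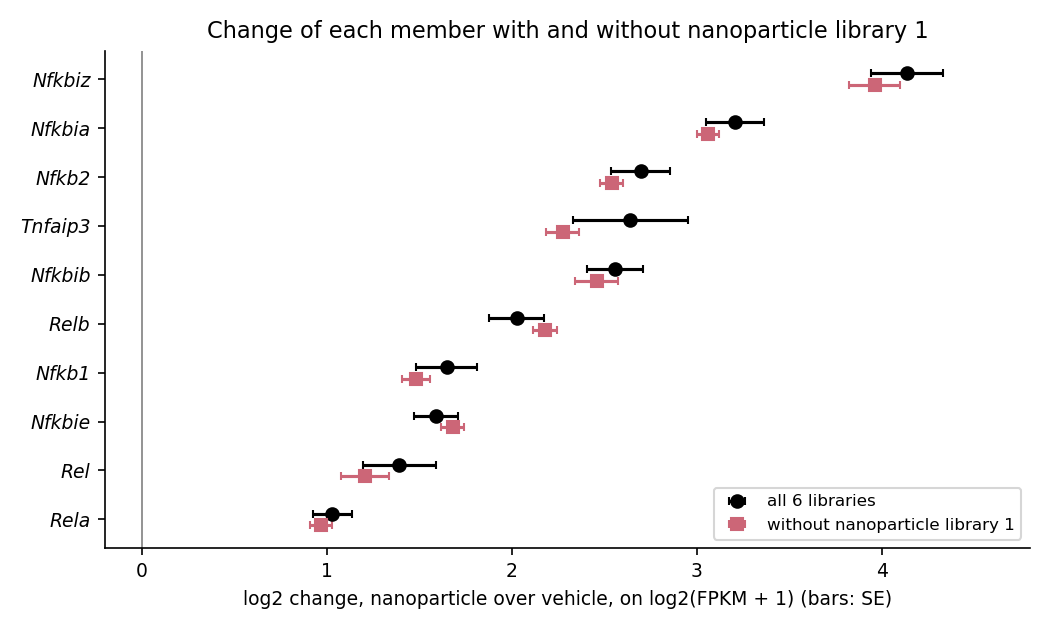
Log2 change of each member, nanoparticle over vehicle, on the log2(FPKM + 1) scale with its SE, from all 6 libraries (circles) and without nanoparticle library 1 (squares). The changes run from 1.03 in Rela to 4.14 in Nfkbiz, and those of Relb and Nfkbie are larger without that library while the others are smaller.

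The order of the members by FPKM, which depends on the lengths that divide the reads, was not the same in the groups. In vehicle it ran from Nfkbia (35.1 FPKM) through Nfkbie (26.6), Rela (25.3), Nfkb2 (20.6), Nfkbib (10.9), Tnfaip3 (10.9), Nfkb1 (9.87), Rel (5.66) and Relb (5.41) to Nfkbiz (0.453 FPKM). Neighbours whose libraries overlapped were Nfkbie and Rela, Nfkbib and Tnfaip3, and Rel and Relb. With nanoparticles the order was Nfkbia (336 FPKM), Nfkb2 (141), Nfkbie (82.3), Tnfaip3 (78.3), Nfkbib (69.1), Rela (52.7), Nfkb1 (33.6), Relb (25.4), Nfkbiz (25.1) and Rel (16.7 FPKM). There the values of Nfkbie, Tnfaip3 and Nfkbib overlapped from one to the next, as did those of Nfkb1, Relb, Nfkbiz and Rel. Rela moved from the third to the sixth place and Nfkb2 from the fourth to the second.

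Whether members changed by different amounts was tested on 6 log2 ratios, each taken within a library on log2(FPKM + 1). The ratio of Relb to Rela was -2.03 ± 0.0338 in vehicle and -1.04 ± 0.370 with nanoparticles, and that of Nfkb2 to Nfkb1 was 0.99 ± 0.116 and 2.04 ± 0.0228 (SD, n = 3 each). The difference between groups, nanoparticle minus vehicle, was thus 1.00 for Relb over Rela and 1.05 for Nfkb2 over Nfkb1. For Rel over Rela it was 0.36, from -1.99 ± 0.164 to -1.63 ± 0.231, and 0.13 with a pseudocount of 4 (exact permutation p = 0.5). Among inhibitors, the difference was 0.65 for Nfkbia over Nfkbib and -0.97 for Nfkbie over Nfkbib, from 1.22 ± 0.248 to 0.25 ± 0.330. For Nfkbiz over Nfkbia it was 0.93 with a pseudocount of 1 and -0.42 with a pseudocount of 4, which compresses a gene below 1 FPKM. With a pseudocount of 1 the groups did not overlap in any of the 6 ratios. For Rel over Rela they nearly met, with the highest vehicle library at -1.842 and the lowest nanoparticle library at -1.836. Each ratio had p = 0.1 in the exact two-sided permutation test (adjusted p = 0.1), the smallest value the design allows.

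Nanoparticle libraries differed among themselves for the members. Library 1 was the highest of its group in 8 members and the lowest in 2, Relb and Nfkbie. Among the 1817 genes called higher, library 1 was the highest of its group in 54.9% and the lowest in 34.2%. The coefficient of variation was 8.42% (Rela) to 48.6% (Tnfaip3) in the nanoparticle group and 1.69% (Nfkbia) to 14.8% (Nfkbib) in vehicle.

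Directions rest on the scale of the deposited values, which places the median gene at no change. On that scale 1817 genes were called higher and 1733 lower. When libraries were scaled by their recovered read totals, the median log2 change of all genes was -0.28, with 1108 called higher and 3613 lower, and when FPKM were scaled to 1 sum it was -0.38, with 881 higher and 4307 lower. The 10 members were called higher in both cases. Their log2 changes were smaller there. Under the total-read and equal-sum scales Rela was at 0.69 and 0.57, Nfkb2 at 2.36 and 2.24, and Nfkbia at 2.87 and 2.74. Relative to the median gene, Rela was at 1.03, 0.97 and 0.95 under the deposited, total-read and equal-sum scales. Nfkb2 was at 2.70, 2.64 and 2.62 and Nfkbia at 3.21, 3.15 and 3.13. Such scaling moves a member and the median gene nearly together, so these relative values had to stay close and test nothing.

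Genes that act on NF-kappaB from upstream were examined as a list. Of 15 kinases and adaptors of the pathway, 5 were higher and 0 lower past the threshold, with a median log2 change of 0.21. Over all tested genes 17.0% were higher and 16.2% lower. Ikbke, an IKK-related kinase, went from 3.03 ± 0.107 to 10.7 ± 3.87 FPKM (SD, n = 3 each), and Tbk1, its relative in interferon induction, from 16.7 ± 0.455 to 31.1 ± 4.61 FPKM. Ikbkb, the main kinase of the canonical branch, had a log2 change of 0.57 (SE 0.0939, adjusted p by limma = 0.0051), and the adaptor Bcl10 0.69 (SE 0.156, adjusted p = 0.0169). Malt1, the partner of Bcl10, was the other called gene. Chuk, the kinase that serves both branches, was at 10.1 to 10.2 FPKM in vehicle and 8.20 to 10.5 FPKM with nanoparticles, and did not pass (log2 change -0.10, adjusted p = 0.538). Map3k14, the kinase that starts the noncanonical branch, did not pass either, at 2.74 to 4.01 and 3.96 to 5.31 FPKM (log2 change 0.38, adjusted p = 0.109). It passed without nanoparticle library 1 (log2 change 0.49, adjusted p by limma = 0.0160), and its adjusted p reached 0.995 among the alternatives. Without nanoparticle library 1 the counts of this list were 7 higher and 3 lower, where 3660 of all 10682 genes were higher and 3263 lower. Without nanoparticle library 2 or any 1 vehicle library 3 genes were higher, and Bcl10 and Malt1 no longer passed. In those fits 1114 to 1423 of all genes were higher. With total-read scaling 2 were higher and 4 lower, where 1108 of all 10682 genes were higher and 3613 lower. With the equal-sum scale 1 was higher, Ikbke, and 4 lower, where 881 of all genes were higher and 4307 lower.

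Further IkappaB family members and brakes of the pathway formed another list. Of 15, 8 were higher and 2 lower past the threshold, with a median log2 change of 0.54. Over all tested genes 17.0% were higher and 16.2% lower. Tnip1, which works together with the Tnfaip3 product, was at 21.1, 20.6 and 19.7 FPKM in vehicle and 117, 96.3 and 88.3 FPKM with nanoparticles, a log2 change of 2.23 (SE 0.132, adjusted p by limma = 1.3e-04). Bcl3, a nuclear IkappaB that binds dimers of the Nfkb1 and Nfkb2 products, was at 4.64, 4.75 and 5.21 FPKM and then 16.6, 20.7 and 19.7 FPKM (log2 change 1.76, SE 0.115, adjusted p = 1.8e-04). Traf2, a ligase adaptor that restrains Map3k14 in resting cells, had a log2 change of 1.07, and Rnf11, a partner of the Tnfaip3 product, of 0.81. The ubiquitin ligase gene Itch (log2 change -0.59, adjusted p = 0.0058) and Pdlim2, which is known to promote the destruction of nuclear Rela protein (-0.62, adjusted p = 0.0165), were lower. The call of Pdlim2 was lost without nanoparticle library 2 or any 1 vehicle library (adjusted p by limma 0.0564 to 0.0751). Of this list 6 were higher under total-read and equal-sum scaling, with no filter, without nanoparticle library 2 and without any 1 vehicle library. There Cyld and Traf3, both brakes of the pathway, no longer passed. In these settings 881 to 1635 of the 10682 tested genes (23398 with no filter) were higher. The median log2 change was 0.25 with total-read and 0.14 with equal-sum scaling. Without nanoparticle library 1 the counts were 10 higher and 2 lower, where 3660 of all 10682 genes were higher and 3263 lower.

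Genes commonly given as NF-kappaB targets were nearly all higher. Of 25 such genes, 24 were higher and 0 lower past the threshold, with a median log2 change of 3.53. Over all tested genes 17.0% were higher. This list, like the others here, was chosen with earlier results of these data known, so its count is a description and no test. In this list 6 genes, Il6, Il12b, Cxcl1, Ptgs2, Nos2 and Csf2, passed the filter through the nanoparticle libraries alone. They had to differ, so their calls are no support for a difference. Among them Il6 and Csf2 held at most 3 recovered reads in each vehicle library. With those genes set to 3 reads per vehicle library, the median of the log2 FPKM ratios was 3.79. The smallest adjusted p were those of the cytokine genes Il1b and Il6, the costimulatory receptor gene Cd40 and the chemokine gene Cxcl2. Their nanoparticle means were 2787, 312, 96.6 and 1602 FPKM. As Il6 had to differ, its place in this order is no support. The gene that did not pass was Bcl2l1, a survival gene, at 30.4 to 33.4 FPKM in vehicle and 17.2, 29.6 and 32.8 FPKM with nanoparticles. Under equal-sum scaling and under quantile normalization it was called lower, and the other 24 stayed higher. In those settings 4307 and 2244 of all 10682 genes were lower.

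A short list of genes known to need IkappaBzeta was examined beside Nfkbiz. All 6 were higher past the threshold, where 17.0% of all tested genes were. However, 5 of them passed the filter through the nanoparticle libraries alone, and 3 of the 6 are also in the list above. Lcn2, which encodes an iron-scavenging protein, was at 0.210, 0.346 and 0.146 FPKM in vehicle and 52.3, 46.4 and 52.5 FPKM with nanoparticles. Il12b, the shared chain of IL-12 and IL-23, was at 0.485, 0.615 and 0.268 FPKM and then 291, 224 and 149 FPKM. Csf3, encoding G-CSF, held at most 2 reads in a vehicle library and was at 47.5, 36.3 and 26.1 FPKM with nanoparticles. The list's median log2 change was 5.26, and 8.10 as log2 FPKM ratios with genes at 3 or fewer vehicle reads set to 3.

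**Figure D4:**
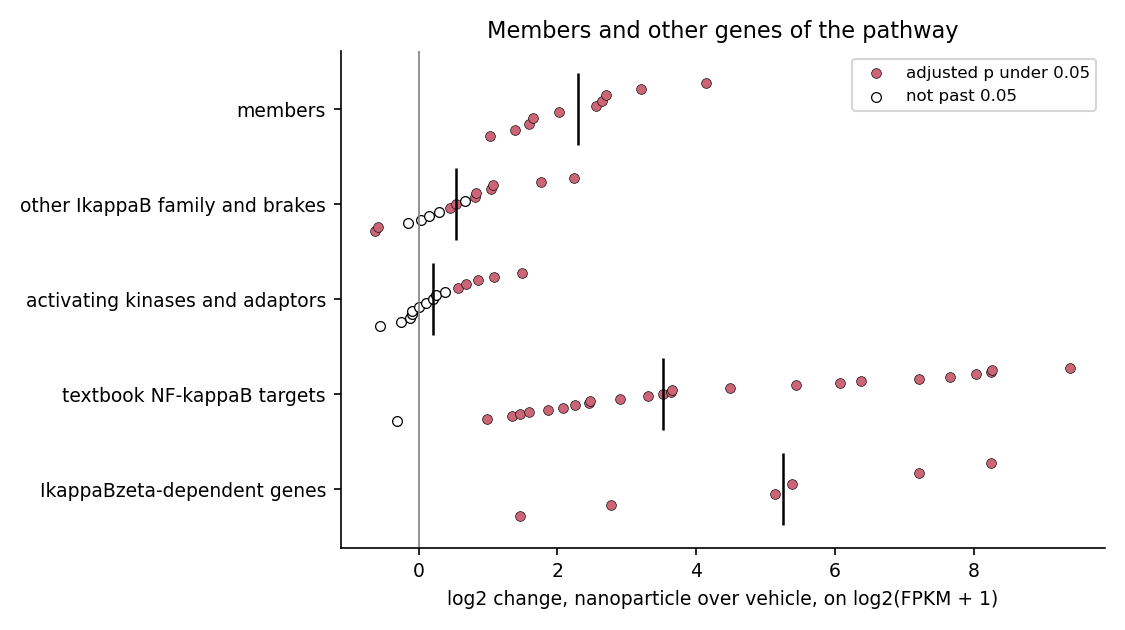
Log2 change, nanoparticle over vehicle, on the log2(FPKM + 1) scale for the members and 4 other lists, with filled points past an adjusted p of 0.05, open points not past it and a line at each list's median. The medians are 2.29 for the members, 0.54 for further IkappaB genes and brakes, 0.21 for kinases and adaptors, 3.53 for targets and 5.26 for IkappaBzeta-dependent genes.

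Genes with the most similar profiles were found by the root mean square difference, over the 6 libraries, of log2(FPKM + 1) taken relative to the vehicle mean. Only genes with a group mean of at least 5 FPKM were considered, and the value describes these libraries with no test. For Nfkb2 the nearest genes were Slfn5 (difference 0.040) and Olr1 (0.058), and for Nfkb1 they were Hmox1 (0.048) and Ebi3 (0.066). Rela lay nearest to Ddx24 (0.048) and Kdm4a (0.052), Rel to Tusc1 (0.076) and Slc7a11 (0.10), and Relb to Il1f9 (0.064) and Slpi (0.096). Nfkbia lay nearest to Cd14 (0.089) and Susd2 (0.098), and Nfkbib to Upp1 (0.092) and Cbln1 (0.11). Nfkbie was followed by Clec4d (0.092) and Gm6548 (0.094), Tnfaip3 by Plpp3 (0.064) and Slc1a2 (0.10), and Nfkbiz by Acsl1 (0.13) and Lox (0.20). In vehicle Susd2 was at 0.0734 to 0.0976 FPKM, Slc1a2 at 0.00365 to 0.00768 and Lox at 0.188 to 0.239. These genes reached the filter through the nanoparticle libraries alone. Adding 1 compresses changes at such levels, so the likeness of Susd2 to Nfkbia and of Slc1a2 to Tnfaip3 describes that scale and not the FPKM ratios. Among the members themselves the closest profiles were those of Nfkb2 and Nfkbib (0.17) and of Nfkb1 and Rel (0.20), and the farthest those of Rela and Nfkbiz (2.20).

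The members are all protein coding and lie on 8 chromosomes in GENCODE M21 on GRCm38. Chromosome 19 carries Nfkb2 (46304320 to 46312385, plus strand) and Rela (5637483 to 5648130, plus strand), and chromosome 7 carries Relb (19606217 to 19629438, minus strand) and Nfkbib (28758251 to 28767512, minus strand). Nfkb1 lies on chromosome 3 (135584655 to 135691547, minus strand), Rel on chromosome 11 (23736847 to 23770970, minus strand) and Nfkbia on chromosome 12 (55489410 to 55492647, minus strand). Nfkbie lies on chromosome 17 (45555703 to 45563169, plus strand), Nfkbiz on chromosome 16 (55811375 to 55838899, minus strand) and Tnfaip3 on chromosome 10 (19000910 to 19015657, minus strand). The gene span ran from 3238 bases in Nfkbia to 106893 bases in Nfkb1.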

How the data were processed

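RNA was sequenced from 3 vehicle and 3 nanoparticle libraries, grouped and numbered by their titles. The submitters' processing notes name CASAVA, STAR 2.5, HTSeq, edgeR 3.16.5 and DESeq2, and the builds hg19 and mm10, without a role for each. The authors deposited 2 tables with identical values (140388 of them), treated as FPKM, a unit inferred from the values. Multiplied by merged exon lengths of GENCODE M21 and 1 scale per library, 95.8% to 96.1% of values above 0 were whole reads (within 0.01). For 515 genes, Nfkb2 and Rela among them, the length was refitted. The library scales matched median-of-ratios size factors within 0.00986%. The floor of 3 reads covers counting error only, as reads carry no molecular identifiers.

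FPKM are not counts, so limma 3.58.1 (R 4.3.3) was fitted with group as its single term and a mean-variance trend, and tested on simulated data beforehand. Exact permutation tests used scipy 1.17.1. The members and lists were chosen with earlier results of these data known. Named genes were the members, the 4 smallest adjusted p of each list, called genes against their list's direction and the 2 nearest profiles per member. Chuk, Map3k14, Malt1, Cyld, Traf3, Bcl2l1 and the cell type markers were named after their values were seen. Replicates were not duplicates (chi-square per degree of freedom of recovered reads at least 2.86). Alternatives were 2 pseudocounts, no filter, 3 scalings, no trend, limma-voom, a replicate block and leaving out each library.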

Additional observations from a re-analysis of the deposited data

How the results depend on the processing

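The 10 members were called higher and 0 lower under each of the 15 alternatives to the fit. The number of genes called over the whole table was 3550. It ran from 2141 to 6923 when 1 library was left out, the highest without nanoparticle library 1 and 2141 to 2226 without any 1 vehicle library. Scaled to 1 FPKM sum it was 5188, and by read totals 4721. In 1 ratio between members the sign turned: Nfkbiz over Nfkbia, at 0.93, was -0.42 with a pseudocount of 4, which compresses Nfkbiz in vehicle. Rel over Rela kept its sign but went from 0.36 to 0.13 with that pseudocount (exact permutation p = 0.5). The directions of Nfkbiz over Nfkbia, and those of the other 5 ratios and 5 shares, held in the remaining alternatives run for them. Same-numbered libraries did not deviate together (correlations 0.065, 0.113 and -0.058 across genes), so the numbers were not taken to pair them. With the replicate block 2785 genes were called, the members among them, and not every library correlated best with its own number. Sequencing depth limits Nfkbiz most, with 42 to 51 reads in vehicle.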
